A study of Mus musculus with 6 samples.

Results

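Small RNAs of piRNA size that came from the 5′ untranslated regions (UTRs) of messenger RNAs were examined in 6 small RNA libraries of mouse spermatogonial stem cells kept in culture, the cells that renew the male germ line. Members were sequences of 25 to 31 nt with no exact match to an annotated small RNA, an exact sense match to exactly 1 gene, that gene being protein-coding, and a position wholly inside the 5′ UTR of its longest coding transcript (GENCODE M21, build GRCm38). Of 8046207 distinct sequences of that size without a small RNA match, 89608 met the rule. By the same rule 1295630 lay in coding sequence and 2241639 in 3′ UTRs, and 21093 more crossed a start codon.

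Per the labels, the cells came from a male F1 mouse of C57BL/6 and DBA2, 15 days old, with an actin-EGFP transgene, and were kept on mouse embryonic fibroblast (MEF) feeders. The strain field names C57BL/6 alone, and reads that carry a DBA2 base have no exact match to the C57BL/6 reference and were not counted. There was 1 library for each of 6 groups: wild type, wild type treated with NaIO4, the mhen1-/- knockout (called the Hen1 knockout here), that knockout treated with NaIO4, the mili-/- knockout (the Mili knockout) and RNA bound by a MILI antibody from wild type cells. Knockouts were made with transfected Cas9 and guide RNAs, and picked single colonies were checked by Sanger sequencing. How many colonies entered a library is not given in the sources used here. All groups share the mouse, the transgene and the feeders, and all but the immunoprecipitate had spike-in RNA added. For the treated libraries, NaIO4 from a 200 mM stock was applied for 1 hour on ice.

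piRNAs are small RNAs that Piwi proteins such as MILI (gene Piwil2) carry in the germ line, where they are best known for silencing transposons. Many are cut from the transcripts of ordinary genes, with the 3′ UTR as the best described source, and most begin with U (T in the sequenced DNA), the base that Piwi proteins favour at the 5′ end. Hen1 (gene Henmt1) places a methyl group on the 2′ oxygen of the last ribose of a piRNA, and NaIO4 oxidises RNAs that lack this group, so that they enter a library poorly. The 5′ UTR is the stretch that ribosomes scan on the way to the start codon, and it can hold control elements such as the iron response element, a hairpin with a conserved loop that iron regulatory proteins bind in the ferritin mRNAs.

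Members of the leading genes are shown first: for each of the 10 genes with the most member reads in the MILI immunoprecipitate, the most abundant member of at most 30 nt. Together they hold only a small part of all member reads. All but the Fth1 sequence have the first base in capitals. In Fth1 the capitals mark CAGTGC, the loop of the iron response element.
Fth1 (chr19:9982739-9982765, + strand, exon 2 of 5): ttcaaCAGTGCttgaacggaacccggt
Ftl1 (chr7:45459670-45459696, - strand, exon 1 of 4): Tgccttcagctcctaggaccagtctgc
Rps15 (chr10:80292815-80292841, + strand, exon 1 of 3): Tcacctaccgtggcgtagacctcgacc
Noct (chr3:51241656-51241683, + strand, exon 1 of 2): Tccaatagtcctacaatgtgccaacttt
Cd209c (chr8:3946069-3946098, - strand, exon 1 of 5): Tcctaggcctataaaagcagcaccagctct
Ddx5 (chr11:106788348-106788373, - strand, exon 1 of 13): Tcgccgcaggattctactttcactgg
Mt1 (chr8:94179268-94179294, + strand, exon 1 of 1): Tctcctcacttactccgtagctccagc
Smcr8 (chr11:60777936-60777964, + strand, exon 1 of 2): Tcgttttcgcatccagaggcctgactctc
BC005537 (chr13:24802108-24802136, + strand, exon 1 of 5): Tccacattgaaatgagtgagaacccgagt
Tsc22d4 (chr5:137746931-137746959, + strand, exon 2 of 5): Tgtactccagtcactaaccaggcaccccc
All 10 begin with T. The Fth1 sequence alone had 6808 reads in the immunoprecipitate and the Ftl1 sequence 4838, whereas those of Noct, BC005537 and Tsc22d4 had 88, 122 and 140, since the reads of these 3 genes were spread over many sites. For Rps15 the limit of 30 nt left out the main product. There 67.5% of the immunoprecipitate reads began 47 nt upstream of the start codon, with a mean length of 30.8 nt. The Rps15 sequence printed had 362 of 5134 reads.

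The next set shows the 3 members with the most reads in the Mili knockout. All lie in 1 stretch of the Mettl26 5′ UTR, and capitals again mark the first base.
Mettl26 a (chr17:25875091-25875119, + strand, exon 1 of 6): Ccgctggtgtagtggtatcatgcaagatt
Mettl26 b (chr17:25875091-25875117, + strand, exon 1 of 6): Ccgctggtgtagtggtatcatgcaaga
Mettl26 c (chr17:25875088-25875117, + strand, exon 1 of 6): Gcgccgctggtgtagtggtatcatgcaaga
None begins with T, and they had 28, 22 and 21 reads in the Mili knockout against 1, 0 and 0 in the far deeper immunoprecipitate. The letters are those of the 5′ portion of a glycine tRNA, and nuclear tRNA genes were not in the annotation used. Whether these reads come from such a tRNA was not tested.

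Depth and other facts of the libraries set what could be seen. Reads of 18 to 35 nt, the total to which shares refer, numbered from 2604390 in the Hen1 knockout with NaIO4 to 25240941 in the immunoprecipitate. MicroRNAs made up 0.847% to 34.0% of these totals and the Mir5099 locus 0.0077% to 33.1%, so shares of a library, which add up to a whole, move when other RNAs do. Intervals are 95% and cover counting error only, since PCR copies of 1 molecule, unmarked by molecular identifiers, are counted as separate reads. With 1 library per group there is no replicate spread, no p-value is given, and each comparison is between these libraries. Small RNA reads do not measure mRNAs, so they check neither the genotypes nor the cell type. The 5′ UTRs of the targeted genes gave few reads in each library, 0, 3, 3, 2, 0 and 9 for Henmt1 and 0, 15, 18, 2, 0 and 64 for Piwil2. Series of 6 values here and below give wild type without and then with NaIO4, the Hen1 knockout likewise, the Mili knockout, and last the immunoprecipitate.

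5′ UTRs gave a small share of the reads from messenger RNAs. Member reads numbered 28081, 67583, 51294, 2936, 1550 and 270545. This was 0.383% (0.379 to 0.388) of reads in untreated wild type and 0.657% after NaIO4, 0.438% and 0.113% in the 2 Hen1 knockout libraries, 0.0322% without Mili and 1.07% in the MILI-bound RNA. The immunoprecipitate was thus the highest and the Mili knockout the lowest. Among all reads from exactly 1 protein-coding gene the members' share was 2.15% in wild type and 2.81% in the immunoprecipitate. 5′ UTRs made up 7.43% of the length of the longest coding transcripts of all protein-coding genes, with or without reads. These annotated lengths, transcribed in the cells or not, also underlie the densities that follow. Per kilobase of region, read density in 5′ UTRs was 0.189 times that in 3′ UTRs in wild type, 0.170, 0.159 and 0.142 times in the next 3 libraries and 0.260 times in the immunoprecipitate. In the Mili knockout it was 1.04 times, so that there 5′ UTRs, coding sequence and 3′ UTRs no longer stood far apart (coding sequence was at 1.30 times the 3′ UTR density).

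The same order held within most genes. Of 6080 genes, the 5′ UTR was less densely covered than the coding sequence in 85.5% and less than the 3′ UTR in 83.8% in the immunoprecipitate. In 485 genes (7.98%) the 5′ UTR was the densest of the 3 regions, and in 1746 it gave no read. Reads that crossed the start codon were not members and numbered 10760 in wild type and 101299 in the immunoprecipitate.

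The members' share was higher after NaIO4 in wild type and lower after it in cells without Hen1. The NaIO4 ratio, the share of the treated library over that of the untreated one, was 1.71 (1.69 to 1.74) in wild type. In the Hen1 knockout the share was 3.89-fold lower with NaIO4 (3.75 to 4.04). The ratio of these ratios was 0.150 (0.144 to 0.156), so that the knockout's response lay 6.66-fold below that of wild type. For coding sequence the 2 ratios were 1.77 and 3.45-fold lower, and for 3′ UTRs 1.91 and 3.49-fold lower. Set against 3′ UTRs, the 5′ UTR ratio of ratios was 0.998 times as large (0.958 to 1.04), and set against coding sequence 0.915 times (0.878 to 0.954). The difference between 5′ and 3′ UTRs in this measure was therefore not detectable at this depth.

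Loss of Mili left few of these reads. Their share was 11.9-fold lower in the Mili knockout than in wild type (11.3 to 12.5). The fall was smaller than for coding sequence (17.4-fold) and for 3′ UTRs (65.5-fold): the 5′ UTR ratio was 1.46 times that of coding sequence (1.39 to 1.55) and 5.51 times that of 3′ UTRs (5.21 to 5.82). The reads that remained differed from those of wild type in first base, position and sequence, as described below. In the immunoprecipitate the share was 2.79 times that of wild type (2.76 to 2.83), against 2.34 for coding sequence and 2.03 for 3′ UTRs. The untreated Hen1 knockout was at 1.14 times wild type (1.13 to 1.16), against 1.09 and 1.36. The total matters for all of these ratios. As a share of reads from exactly 1 protein-coding gene, members were at 0.923 times with NaIO4 in wild type, 0.894 times with NaIO4 in the Hen1 knockout, 0.900 times in the untreated Hen1 knockout over wild type, 2.45 times in the Mili knockout and 1.31 times in the immunoprecipitate. In bulk RNA, fewer cells that make piRNAs and less piRNA per cell cannot be told apart.

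**Figure D1:**
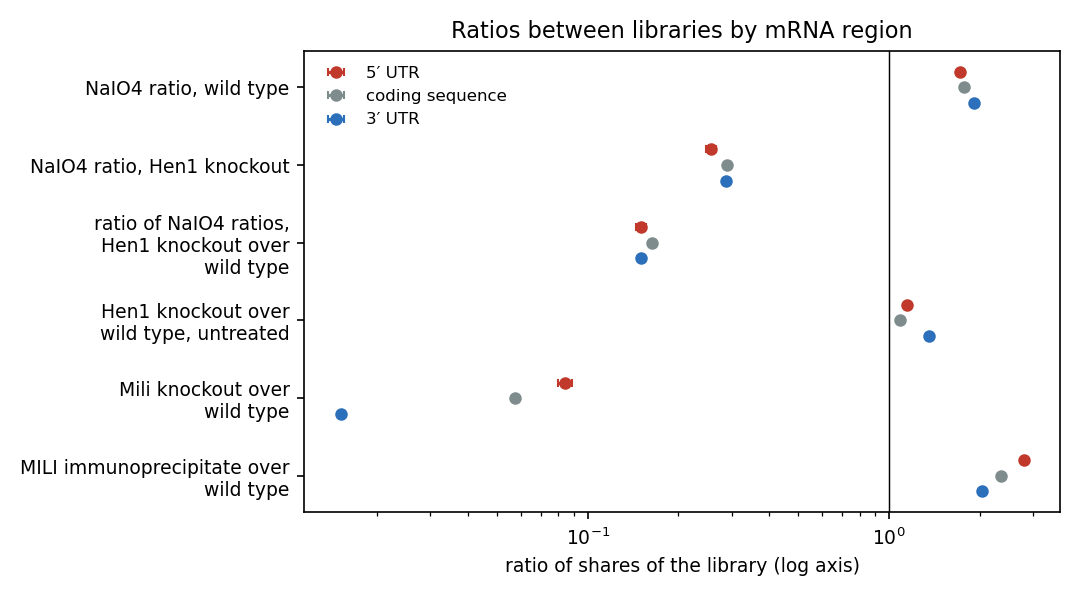
Ratios of library shares (log axis) for piRNA-size reads from 5′ UTRs, coding sequence and 3′ UTRs in each comparison, with bars for 95% counting intervals and a line at 1. The 5′ UTR points lie close to those of the other regions for NaIO4 (1.71 in wild type, 0.257 in the Hen1 knockout) and well above 3′ UTRs in the Mili knockout (0.0841 against 0.0153).

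Across genes, the NaIO4 response of 5′ UTRs was near that of all gene regions. Of 411 5′ UTRs with at least 100 reads in the immunoprecipitate, a library outside these contrasts, 164 (39.9%) passed the 2-fold line upward after NaIO4 in wild type, beside 40.1% of all 10591 regions that passed the same limit. The median ratio was 1.83, and 4 were at least 2-fold lower (0.33% of all regions were). Of these 4, Epop went from 16 reads to 7, Fam222a from 5 to 2 and Mrpl35 from 19 to 10, and they are named after their values were seen. In the Hen1 knockout 307 of the 411 (74.7%) were at least 2-fold lower with NaIO4, beside 79.3% of all regions, and 8 were at least 2-fold higher (0.718% of all regions). The median fall was 4.23-fold, and 145 of the 411 had 0 reads in the treated knockout library, the shallowest of the 6.

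Among the 411 5′ UTRs the Mili knockout call was the most frequent. Their entry rested on at least 100 MILI-bound reads, as did that of the regions set beside them. A fall without Mili was therefore partly built into both sets. Of the 411 5′ UTRs, 399 (97.1%) were at least 2-fold lower than in wild type, beside 97.3% of all regions, and 337 had 0 reads. The 2 that were at least 2-fold higher (0.151% of all regions) were Naca, with 3 wild type reads and 5 knockout reads, and Ucp2, with 1 and 2. At those counts neither direction is firm. The read limit left out Mettl26, which had 133 wild type reads, 182 without Mili and only 20 MILI-bound ones. With a limit of 50 reads, 722 of 806 5′ UTRs were at least 2-fold lower without Mili, so the fall was less general there. The share over all regions was not computed at that limit, and 5′ UTRs below 50 reads were not tested. For the immunoprecipitate the limit was 50 reads in wild type with NaIO4, which left 246 5′ UTRs. Of these, 153 (62.2%) were at least 2-fold higher than in untreated wild type, beside 62.9% of all regions, and Mettl26 and Wipf2 were at least 2-fold lower (0.338% of all regions). In the untreated Hen1 knockout 66 of 411 lay above wild type by the 2-fold rule and 80 below it, which is 16.1% and 19.5% beside 12.9% and 7.3% of all regions. These median counts were 34 and 22 reads per 5′ UTR, so single genes near the 2-fold line are uncertain.

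Reads were concentrated in few genes. Members came from 7920 of the 19859 protein-coding genes with a 5′ UTR of at least 25 nt, but 102 genes held 50% of the member reads in the immunoprecipitate and 175 genes in wild type. The 20 leading genes held 31.8% of the immunoprecipitate's member reads and 20.8% of wild type's. Singletons were common, with 43.7% of the members seen in 1 read over all libraries. Of wild type member reads, 65.6% had a sequence that also occurred in the immunoprecipitate, against 6.97% in the Mili knockout. Most member reads (96.3% in wild type) lay in the 5′ UTR of every isoform that holds them. In wild type 13.8% lay near another gene, that is within 1 mismatch on either strand or exactly antisense to it.

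Fth1, the heavy chain of ferritin that stores iron, was the leading source. Its 5′ UTR gave 1528 reads in wild type, 3209 with NaIO4, 4718 and 177 in the untreated and treated Hen1 knockout, 1 without Mili and 37571 in the MILI-bound RNA. That is 5.44% of all member reads in wild type and 13.9% in the immunoprecipitate. The NaIO4 ratio was 1.5 (1.41 to 1.59) in wild type, and the share was 5.93-fold lower with NaIO4 in the Hen1 knockout (5.11 to 6.89). Between untreated libraries Fth1 was 1.93 times as high in the Hen1 knockout as in wild type (1.82 to 2.05). None of its immunoprecipitate reads lay near another gene.

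Ftl1, the light chain, was second. It gave 421, 852, 195, 2, 4 and 8993 reads, so the 4 reads of the Mili knockout stand against 421 in wild type. Its NaIO4 ratio was 1.44 (1.28 to 1.62) in wild type, while without Hen1 the share was 21.7-fold lower with NaIO4 (5.39 to 87.4), a value that rests on 2 reads. Where Fth1 was higher in the untreated Hen1 knockout, Ftl1 was 3.45-fold lower than in wild type (2.91 to 4.09). All Ftl1 reads of the immunoprecipitate lay near another gene in the sense given above. A read of a near copy counts here only if a changed base makes it match Ftl1 exactly, and how many do was not tested.

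The ferritin reads started at a few fixed sites. In Fth1 the leading 5′ end, 131 nt upstream of the start codon, held 376, 620, 1925, 65, 0 and 9677 reads, which was 24.6% of the gene's reads in wild type, 40.8% in the Hen1 knockout and 25.8% in the immunoprecipitate. Reads from this end run across the loop of the iron response element, as in the sequence printed above. Reads that cover the whole CAGTGC loop, which lies 120 nt from the start codon, numbered 534, 1003, 2361, 83, 0 and 14020, or 34.9%, 31.3%, 50.0% and 46.9% of Fth1 member reads in the first 4 libraries and 37.3% in the immunoprecipitate. The share was higher in both Hen1 knockout libraries than in both wild type libraries. Further Fth1 ends lay 123, 75, 67 and 58 nt upstream of the start codon and, like the leading one, begin with T.

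In Ftl1 the picture was different. One end, 65 nt upstream of the start codon, held 6095 reads in the immunoprecipitate (67.8% of the gene's) and 267 in wild type (63.4%). The loop of the Ftl1 element, CAGTGT, lies 158 nt from the start codon and was covered by no member read in any library, which for the 8993 reads of the immunoprecipitate allows a share of up to 0.0334%. Sequences that match Ftl1 and another gene alike are not members, so reads on that loop that fit more than 1 gene are not counted here. The letters CAGTGN (N is any base; sense strand only) occur in 26.8% of all 5′ UTRs and in 3.24% of all 28-nt windows of 5′ UTRs. They stood in 6.82% of member reads of the immunoprecipitate, and outside Fth1 and Ftl1 in 1.98%. Of the 6 iron response genes of the list, 5 had a read in the immunoprecipitate and only Fth1 and Ftl1 had at least 100.

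**Figure D2:**
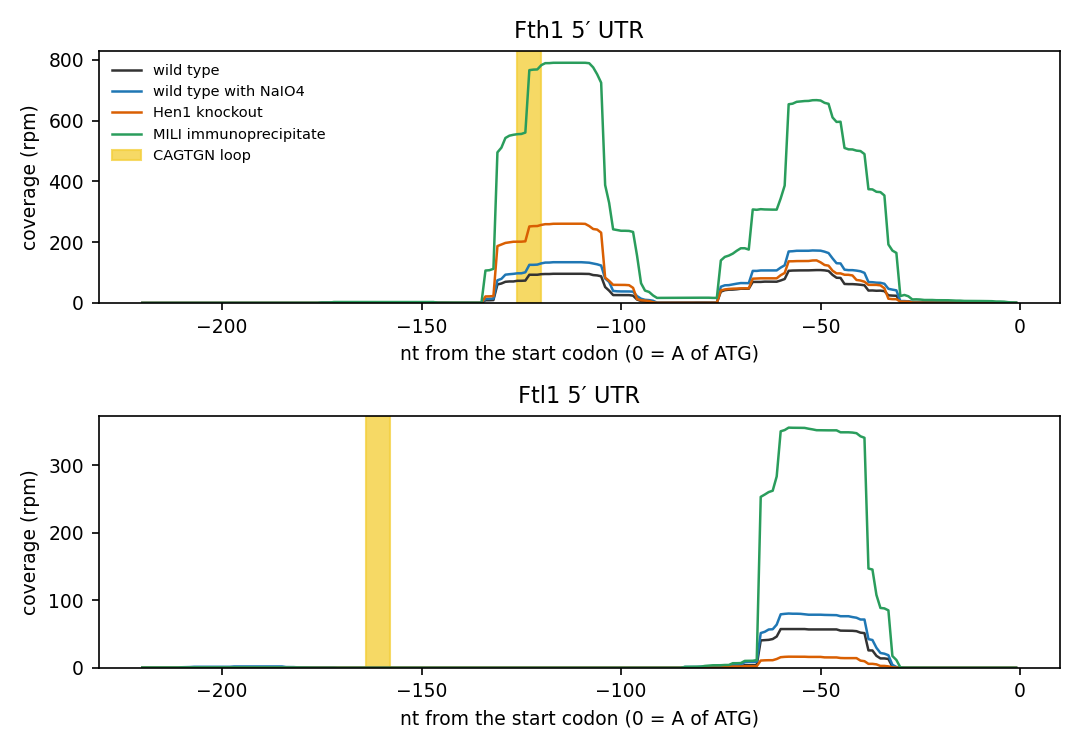
Coverage by 5′ UTR piRNA reads, in reads per 1000000 reads of 18 to 35 nt (rpm), along the last stretch of the Fth1 (top) and Ftl1 (bottom) 5′ UTRs in 4 libraries, by distance from the start codon, with the CAGTGN loop shaded. Fth1 has a peak over the loop and another nearer the start codon in every library drawn, and Ftl1 has 1 peak away from the loop.

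The other 18 leading genes were a mixed group. Rps15 and Rps20 are proteins of the small ribosomal subunit. Rps15 gave 333, 957, 473, 26, 3 and 5134 reads, but only 0.19% of these reads in the immunoprecipitate lay in the 5′ UTR of every isoform that holds them, and 99.8% lay near another gene. Rps20 gave 100, 286, 120, 11, 0 and 1454 reads. In the immunoprecipitate 1.58% of them lay near another gene, and 48.1% began at 1 site 60 nt upstream of the start codon. Its 5′ UTR had 322 reads in the immunoprecipitate per kilobase and per 1000000 reads of the library, and its coding sequence 46.4.

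Mt1, a metallothionein that binds zinc and copper, gave 75, 234, 103, 4, 0 and 2433 reads from a 5′ UTR of only 70 nt. Ppp1r15a, the phosphatase subunit that reverses eIF2α phosphorylation, gave 417, 701, 466, 17, 0 and 1708. Jun, a component of the AP-1 transcription factor, gave 189, 605, 375, 7, 0 and 1507. In each of these genes the treated Hen1 knockout library was lower than the untreated one, and the Mili knockout had no read. With 0 reads set to a floor of 3 counts per library, the Mili knockout was at least 91.3-fold lower than wild type for Ppp1r15a, 41.4-fold for Jun and 16.4-fold for Mt1. Dusp6, a phosphatase of ERK, gave 274, 456, 462, 16, 4 and 1585 reads.

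Ddx5, an RNA helicase, gave 93, 214, 112, 3, 4 and 2466 reads. Hmgn1, which binds nucleosomes, gave 68, 110, 160, 9, 0 and 1460, and 93.4% of its immunoprecipitate reads began at 1 site 45 nt upstream of the start codon. Hmgn1 was the only one of the 20 whose NaIO4 ratio in wild type had an interval that reached 1 (1.15, 0.851 to 1.56). Sox4, a transcription factor of the SRY family, gave 156, 401, 488, 23, 0 and 1746 reads.

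Some leading genes are uncertain as sources. Noct, the circadian protein nocturnin, gave 592, 1088, 1552, 102, 0 and 4022 reads from an annotated 5′ UTR of 7607 nt. Of those in the immunoprecipitate, 47.7% lay near another gene. Cd209c, a C-type lectin, gave 504, 1572, 2565, 159, 3 and 3675 reads. In the immunoprecipitate 95.2% of the Cd209c reads lay near another gene, and its coding sequence and 3′ UTR gave no read. Cd209c was also the highest of the 20 in the untreated Hen1 knockout, at 3.18 times wild type (2.89 to 3.50). Rangrf gave 123, 273, 243, 8, 0 and 1340 reads, and all of those in the immunoprecipitate lay near another gene as well. Near matches by mismatch and by antisense overlap were not told apart here.

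Smcr8, which acts in autophagy with C9orf72, gave 197, 588, 432, 45, 0 and 2410 reads, and Tsc22d4, a TSC22 domain protein, 108, 366, 93, 9, 0 and 2014. BC005537 gave 247, 612, 652, 38, 1 and 2131, Igip 188, 507, 524, 46, 0 and 1756, and Pfdn6, a subunit of the prefoldin chaperone, 72, 201, 244, 18, 0 and 1233. Across all 20 genes the treated library was higher in wild type and lower in the Hen1 knockout, with intervals clear of 1 in 19 and 20 of them. The ratios ran from 1.15 (Hmgn1) to 2.41 (Tsc22d4) in wild type, and the falls from 2.14-fold (Smcr8) to 21.7-fold (Ftl1) in the knockout. That pattern depends on the total: per read from exactly 1 protein-coding gene, 10 of the 20 were above 1 in wild type, and 14 below 1 in the Hen1 knockout. The Mili knockout had 0 reads for 13 of the 20 and at most 4 for any. In untreated Hen1 knockout cells the 20 did not move together, with 10 above wild type and 5 below by their intervals.

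**Figure D3:**
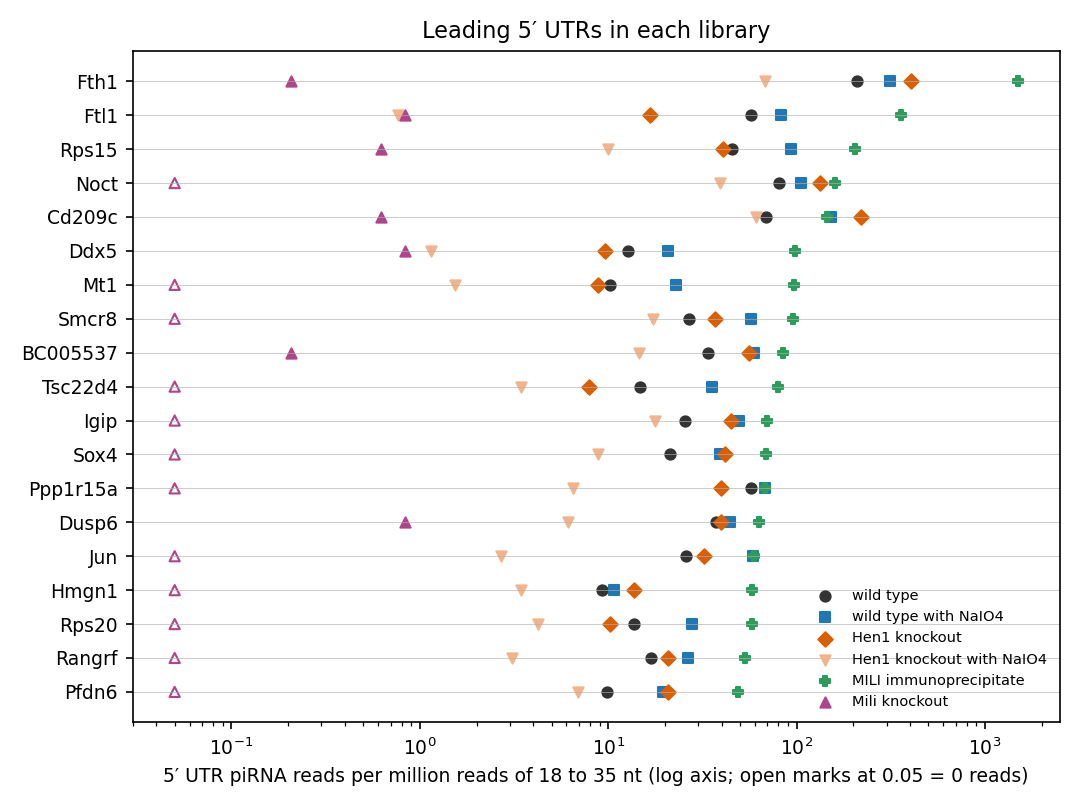
Reads per 1000000 reads of 18 to 35 nt (log axis) from the 5′ UTRs of 19 of the 20 leading genes in the 6 libraries, 1 mark per library, with open marks for 0 reads. The immunoprecipitate runs from 48.8 (Pfdn6) to 1488 (Fth1), and Mili knockout marks are open for 12 of the genes drawn.

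Concentration on 1 site was common beyond the 20. Over the 411 5′ UTRs with at least 100 immunoprecipitate reads, the leading 5′ end held a median 31.6% of reads (quartiles 19.1% and 47.9%), and more than 50% in 92.

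Groups of genes by function differed in how often they gave such reads. Over all genes, 2.07% had at least 100 member reads in the immunoprecipitate and 35.4% had any. Genes whose mRNAs are controlled by upstream reading frames, short frames in the 5′ UTR that hold back the main one, stood at 7 of 14 with at least 100 reads and 14 of 14 with any. Ppp1r15a led them, followed by Ppp1r15b (122, 268, 275, 16, 0 and 957 reads), its constitutive relative, whose immunoprecipitate reads all lay near another gene. Ribosomal protein genes stood at 20 of 93 and 73 of 93, led by Rps15 and Rps20. Germ line and stem cell genes stood at 2 of 28 and 18 of 28. The 2 with at least 100 reads were Lhx1, a transcription factor of stem cell maintenance (10, 47, 3, 0, 0 and 290 reads), and Dazl, a germ cell RNA-binding protein (9, 10, 44, 7, 2 and 194). The 2 differed in the untreated Hen1 knockout, where Lhx1 had 3 reads and Dazl 44. None of 21 piRNA pathway genes reached 100 reads and 10 had any, with Piwil2 the highest at 64. Of 15 genes typical of fibroblasts, the feeder cells, 3 had any read and together they gave 5 reads in the immunoprecipitate, 1 in wild type and 2 in the Mili knockout. The transcript level behind each group was not measured, so the counts do not compare how readily each mRNA is cut. The limit of 100 reads also takes no account of length. The median 5′ UTR was 354 nt among the 411 that passed it and 187 nt over all.

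Most members began with T, as piRNAs do, except in the Mili knockout. T stood first in 81.1% (80.6 to 81.5) of wild type member reads, 84.2% with NaIO4, 83.9% and 80.5% in the untreated and treated Hen1 knockout and 87.7% in the MILI-bound RNA. In the Mili knockout it was 15.1% (13.3 to 17). The 5′ UTRs themselves are 21.6% T, so the immunoprecipitate was at 4.07 times the content of its source and the Mili knockout at 0.70 times. 3′ UTRs hold more T (29.1%), and there 89.5% of immunoprecipitate reads began with T, which is 3.07 times the content. Reciprocal cleavage leaves an A at position 10 of its products. The members had A there in 21.7% of wild type reads and 19.8% of immunoprecipitate reads, beside an A content of 19.0%. The Hen1 knockout stood at 23.9% and the Mili knockout at 13.6%.

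**Figure D4:**
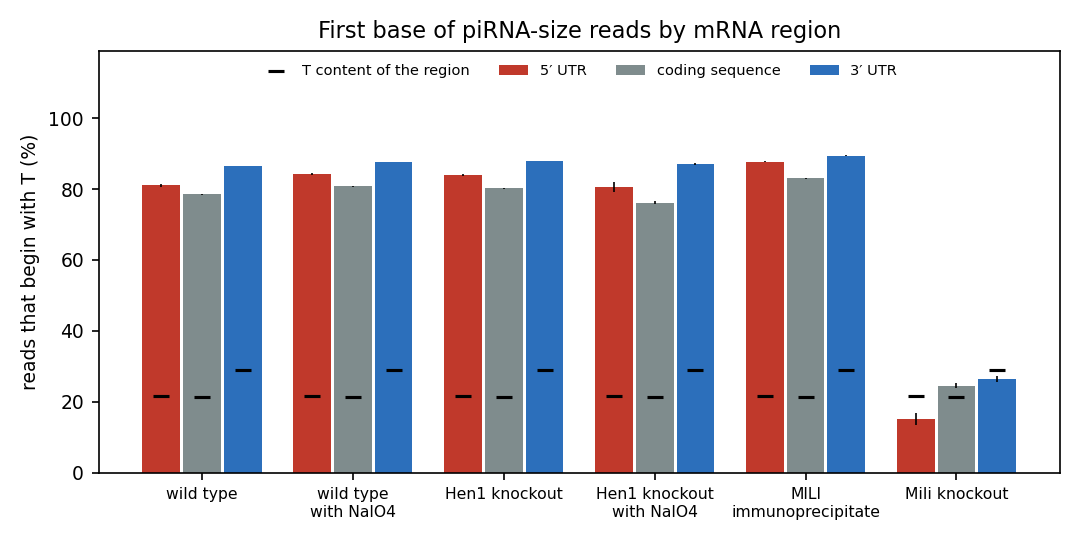
Share of piRNA-size reads that begin with T in each library for 5′ UTRs, coding sequence and 3′ UTRs, as bars from 0 with 95% counting intervals; the marks give the T content of each region. In 5 libraries the 5′ UTR bars stand above 80%, and in the Mili knockout at 15.1%, below the T content of 21.6%.

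The Mili knockout reads also lay elsewhere. Mettl26 gave 133, 75, 250, 35, 182 and 20 reads, and it held 11.7% of the Mili knockout's member reads. Unlike the 20 leading genes it was lower with NaIO4 in wild type, at 0.402 times (0.303 to 0.533). Dhrs1 (0, 6, 2, 0, 12 and 7 reads), a dehydrogenase of the short-chain family, was the only other named gene with a higher raw count in the Mili knockout than in the far deeper immunoprecipitate. Ptgr2, Slc45a4 and Srsf3 had 12, 15 and 10 reads in the Mili knockout. In rpm these 3 were also higher there than in the immunoprecipitate, at 2.50 against 1.43, 3.12 against 2.34 and 2.08 against 1.86. Without Mettl26 the Mili knockout kept 1368 member reads, 16.1% of them with T first, and was 13.4-fold below wild type.

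Members lay toward the start codon. Each 5′ UTR of at least 100 nt was divided into 10 equal bins from its annotated 5′ end (bin 1) to the start codon (bin 10). The annotated end is that of the longest coding transcript. Where transcripts start in these cells was not measured, so the first bins may hold sequence that is not transcribed. Bins 6 to 10 held 64.3% of wild type member reads, 65.7% after NaIO4, 65.1% and 61.9% in the untreated and treated Hen1 knockout, and 72.1% in the immunoprecipitate. The Mili knockout stood at 39.97%. With each gene weighted equally the value was 64.7% in wild type (530 genes with at least 10 reads) and 66.4% in the immunoprecipitate (2467 genes), and without Fth1 the pooled immunoprecipitate value was 67.3%. Bin 1 held 5.61% of wild type and 3.56% of immunoprecipitate reads but 25.4% of Mili knockout reads, and 14.7% there without Mettl26. Bin 9 held 18.2% and 24.1% of wild type and immunoprecipitate reads, and bin 10 18.3% and 22.8%. The T content of the same 5′ UTRs ran only from 19.5% to 21.8% over the 10 bins, and its part in the shift was not tested.

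Fewer read starts lay before the start codon than after it. In the window of 100 nt to each side, 41.6% of read starts lay upstream as a mean over 3011 genes in the immunoprecipitate, and 41.2% over 673 genes in wild type. The 10 nt before the start codon held 6.58% of the window's starts and the first 10 nt after it 6.80% in the immunoprecipitate, against 3.26% in the farthest 10 nt upstream and 6.25% in the farthest downstream. Of the starts in those first 10 nt, 45.7% were at the T of the ATG itself. In wild type the same bins were 6.92% and 9.36%, with 52.5% at that T. T content was 16.3% in the 10 nt before the start codon and 22.6% in the first 10 nt from it, and its part in these shares was not tested. Reads that start at the ATG are not members, while those that start just before it and cross it make up the boundary set counted above.

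**Figure D5:**
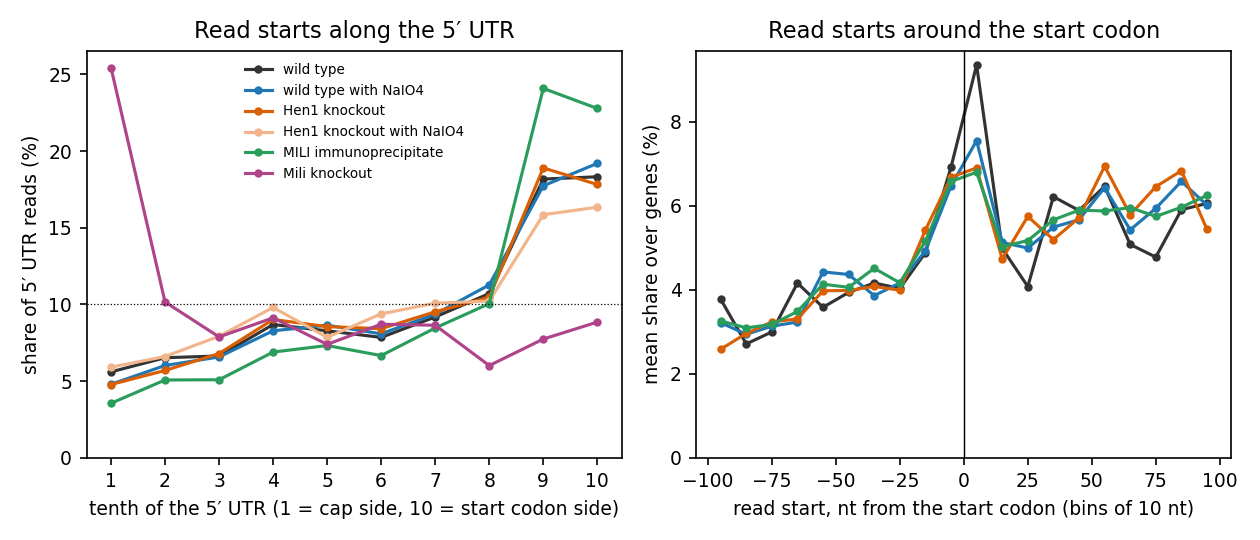
Left, share of 5′ UTR reads (%) in each of 10 bins from the annotated 5′ end to the start codon for the 6 libraries. The dotted line marks an even 10%. Right, mean share of read starts (%) over genes in 10-nt bins around the start codon in 4 libraries. All libraries but the Mili knockout are highest in bins 9 and 10 (24.1% and 22.8% in the immunoprecipitate), and the Mili knockout is highest in bin 1 at 25.4%.

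Members were shorter in the Hen1 knockout. Their mean length was 27.8 nt in wild type, 27.8 with NaIO4, 26.9 and 27.0 in the untreated and treated Hen1 knockout, 27.7 without Mili and 27.8 in the MILI-bound RNA. Reads of 25 nt made up 6.63% of wild type and 17.2% of Hen1 knockout reads. Reads shorter than 25 nt or without an exact match are not members, so the lengths and shares given for the knockout leave these out. At the 17 5′ ends (10 genes) read 50 times or more in untreated wild type and knockout cells alike, the mean length was shorter in the knockout at 17 of 17, and at the median end it fell by 0.615 nt. The size varied between ends of the same gene: in Fth1 it fell by 1.83 nt at the end 75 nt upstream of the start codon (29.1 to 27.3 nt) but by 0.363 nt at the leading end (27.4 to 27.0 nt). At the leading Ftl1 end it fell by 1.25 nt. For comparison, 152 of 161 ends in coding sequence and 665 of 717 in 3′ UTRs were shorter. Between wild type with and without NaIO4, 12 of 30 ends were shorter and 18 longer, with a median difference of 0.026 nt.

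The base that follows the 3′ end of a read in its transcript was T for 23.5% of wild type members and 22.8% in the immunoprecipitate. The last base of the read itself was T more often, in 28.7%, 31.5% and 27.4% of reads in untreated wild type, the untreated Hen1 knockout and the immunoprecipitate. It was the position richest in T among those from 4 nt before to 5 nt after it in these libraries. Antisense partners were few among the reads counted. Only antisense reads with no sense match to any transcript were counted, so those that also fit another transcript in sense are left out. Antisense reads of piRNA size over these 5′ UTRs numbered 1422 in wild type and 6674 in the immunoprecipitate, 4.82% and 2.41% of sense and antisense reads together. Sense reads with an antisense 5′ end at an overlap of 10 nt, the spacing of reciprocal cleavage, numbered 222 in wild type, 684 with NaIO4, 1306 in the Hen1 knockout and 2746 in the immunoprecipitate, against medians of 36, 126, 240 and 959 at the other overlaps from 1 to 20 nt. Only 4 genes gave the wild type reads, and Cd209c, whose immunoprecipitate reads mostly lie near another gene, held 179 of them. The Mili knockout had 0 of 1550 at an overlap of 10 nt, which allows a share of up to 0.194%, and 0 at every other overlap from 1 to 20 nt as well.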

How the data were processed

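The deposited files hold read counts per distinct sequence for 6 small RNA libraries, whole numbers made by the authors by collapsing identical reads, with no header and no scaling. The aligner Bowtie and the build mm10 come from GEO's list, per the submitters' processing notes. How reads were trimmed is not given in the sources used here. Those of 25 to 31 nt were matched exactly, on both strands, to GENCODE M21 transcripts (GRCm38), and regions were taken from the longest coding transcript. Introns and unannotated regions were not read. Matching and tables used Python 3.11.15, numpy 2.4.6, numba 0.67.0, pandas 2.3.3 and scipy 1.17.1, and figures matplotlib 3.10.9. Ratios compare shares of reads of 18 to 35 nt, with 95% intervals from the counts. Shares have exact Clopper-Pearson intervals. Gene regions were called at 2-fold with 0.5 added to each count. The floor for 0 reads was 3 counts per library. The steps were tested on simulated data.

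Named genes were the 20 with the most member reads in the immunoprecipitate and, for each gene list, the 2 with the most. The lists covered the piRNA pathway, germ line, fibroblasts, other testis somatic cells, iron response elements, upstream reading frames, internal ribosome entry, translation initiation, ribosomal proteins, chromatin and the cell cycle. Mettl26, Dhrs1, Ptgr2, Slc45a4 and Srsf3 were named for their reads in the Mili knockout. The members and lists were chosen with earlier results of these data known. Alternatives changed the total, the transcript, the length window, the read limits and the genes included. The alternative without Fth1, Ftl1, Rps15 and Mettl26 was chosen after the data were seen. Spike-in reads were not used here, and 1 of the 20 leading genes, which stays in the counts, is not reported here by name.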

Additional observations from a re-analysis of the deposited data

Results flagged for a closer look

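In wild type the members' share rose with NaIO4, and in the Hen1 knockout it fell. With 1 library per group this difference in direction was not tested. For all 5′ UTR piRNA reads the ratio of the 2 NaIO4 ratios, knockout over wild type, was 0.150. The same opposite directions were seen, with both intervals clear of 1, in 19 of the 20 leading genes. Of those reported here, the ratio of ratios was lowest for Ftl1 (0.0320) and Jun (0.0368), with 2 and 7 reads in the treated knockout. It was 0.0735 for Ddx5, 0.0785 for Mt1, 0.0936 for Rangrf, 0.113 for Fth1, 0.116 for Sox4, 0.121 for Rps15, 0.125 for Cd209c, 0.131 for Dusp6 and 0.137 for Ppp1r15a. The next values were 0.148 for BC005537, 0.167 for Pfdn6, 0.180 for Tsc22d4, 0.202 for Rps20 and 0.205 for Igip. Smcr8 (0.220) and Noct (0.226) had the highest. In the immunoprecipitate nearly all reads of Cd209c, Rangrf, Ftl1 and Rps15 lie near another gene, as do 47.7% of those of Noct.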

How the results depend on the processing

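Each set of 6 ratios gives the NaIO4 ratio in wild type (a) and without Hen1 (b), b over a (c), and the untreated Hen1 knockout (d), the Mili knockout (e) and the immunoprecipitate (f) over wild type. Per microRNA read they were 22.3, 0.735, 0.0329, 2.99, 0.0474 and 63.3, and per read of the Mir5099 locus 1.49, 0.0660, 0.0443, 1.03, 0.0453 and 2778. Per read from exactly 1 protein-coding gene they were 0.923, 0.894, 0.968, 0.900, 2.45 and 1.31, which turned a, d and e; that total itself moves with NaIO4 and with both knockouts. With the 10 leading sequences of every library taken out of the total they were 1.65, 0.389, 0.235, 1.10, 0.0985 and 2.47. With each distinct sequence counted once they were 1.14, 0.584, 0.512, 0.813, 0.302 and 1.21, which turned d, and the cause was not tested. Ratios d, e and f were 1.12, 0.0902 and 2.75 with no match to another gene within 1 mismatch, 1.10, 0.0888 and 2.55 without Fth1, and 1.10, 0.0793 and 2.57 without sequences seen in 1 read. At 26 to 30 nt a was 1.75, d 1.06 and e 0.0657. Without Fth1, Ftl1, Rps15 and Mettl26 d was 1.11 and f 2.47. The members' share was 0.352% in wild type and 0.992% in the immunoprecipitate by the transcript with the longest coding sequence, and 0.369% and 1.03% for reads in the 5′ UTR of every isoform. It was 0.331% and 0.911% with no near match, 0.363% and 0.923% without Fth1, and 0.351% and 0.867% without the 4 genes. Of 411 5′ UTRs, 164 (NaIO4 in wild type), 307 (NaIO4 in the Hen1 knockout) and 399 (Mili knockout) were called, and 153 of 246 for the immunoprecipitate. With a read limit of 50 they were 337, 580 and 722 of 806, and 310 of 499. With 300 they were 43, 112 and 126 of 126, and 39 of 58. The counts that follow are again of 411 and 246. Shares over all gene regions were computed for the main setting only, so these counts have no such share beside them. Per read from exactly 1 protein-coding gene they were 32, 125, 77 and 37. Per microRNA read the NaIO4 counts were 411 and 157 and the immunoprecipitate count 245. Under a 4-fold rule NaIO4 in wild type gave 27 and the immunoprecipitate 45. Of the 102 other values computed, 31 kept their direction and moved by less than their counting error, or by less than 1.5 times for a count. No paired analysis was possible because each group has 1 library. The treated Hen1 knockout, with 2936 member reads, limits what can be said of single genes there.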

Other observations

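Of 23 translation initiation genes 4 had at least 100 member reads in the immunoprecipitate, beside 2.07% of all genes. Eif4ebp2, a repressor of cap-dependent translation, gave 25, 63, 19, 0, 0 and 575 reads, and 96.2% of the last began at 1 site 30 nt upstream of the start codon. Eif5, which helps the initiation complex recognise the start codon, gave 28, 111, 55, 14, 4 and 390, and in the Hen1 knockout its share with NaIO4 was 1.14 times that without (0.638 to 2.06), so a fall was not detectable. Genes known for long or structured 5′ UTRs or internal ribosome entry stood at 2 of 14, Jun and Pdgfb, a growth factor (26, 33, 25, 0, 8 and 133 reads). Cell cycle genes stood at 1 of 18, Ccnd3, a D-type cyclin, with 111 reads, followed by Ccna2, cyclin A2, with 76. Only 18 of the Ccnd3 reads (16.2%) lay in the 5′ UTR of every isoform that holds them, which is below the limit of 100. None of 22 chromatin genes reached 100 reads, with Cbx5, the heterochromatin protein HP1α, at 53 and Dnmt1, the maintenance DNA methyltransferase, at 51. Of the Dnmt1 reads, 3.92% lay in the 5′ UTR of every isoform that holds them. None of 10 genes typical of other testis somatic cells reached 100 reads either. Sox9, a Sertoli cell factor, had 10 and Star, which carries cholesterol into mitochondria in Leydig cells, had 3.

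Of the 411 5′ UTRs with at least 100 reads in the immunoprecipitate, 4 had no read in untreated wild type and 16 to 35 with NaIO4. They were named after their values were seen. Untreated wild type was the shallower library, with 7322408 reads of 18 to 35 nt against 10282416 with NaIO4. How many coding sequence and 3′ UTR regions show the same pattern was not counted, so it is not a trait of 5′ UTRs. Fam78a gave 0, 35, 24, 4, 0 and 126 reads, 4931428L18Rik 0, 28, 22, 3, 0 and 108, Cd81, a tetraspanin, 0, 19, 8, 0, 0 and 101, and Asxl1, a chromatin regulator, 0, 16, 10, 0, 0 and 127. All 4 had reads in the untreated Hen1 knockout, while reads in the immunoprecipitate were a condition of entry.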
